A study of Mus musculus with 12 samples.

Results

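The SR proteins are a family of splicing factors, and the 10 genes described here, *Srsf1* to *Srsf7* and *Srsf9* to *Srsf11*, were taken by name because their transcripts are known to include poison exons or retained introns. All 10 were found among the 41255 genes of the mRNA table and among the 10080 genes of the ribosome footprint (RPF) table, and all 10 passed the filters on low values. The data came from Ba/F3 cells, an IL-3-dependent mouse lymphoid line, in which human *RPL10* was expressed from a retroviral vector as wild type (WT) or as the R98S mutant found in T-cell leukemia, while an shRNA lowered endogenous *Rpl10*. Clones 11, 13 and 35 carried R98S and clones 28, 29 and 36 carried WT, each clone gave 1 mRNA and 1 RPF library, and so 12 libraries were compared. Each clone is a culture grown from a single cell, so a difference between genotypes includes any difference between the founding cells. All cells, WT included, received cycloheximide at 100 μg/ml for 5 min before lysis.

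SR proteins bind exonic enhancers through RNA recognition motifs and recruit the spliceosome through arginine-serine repeats. The same repeats are phosphorylated by the CLK and SRPK kinases, which set where the proteins sit in the nucleus and whether they act. Many SR genes control their own amount: the protein promotes inclusion of a poison exon, which brings an early stop codon into the transcript and sends it to nonsense-mediated decay (NMD), or an intron is kept and the RNA stays in the nucleus. Reads from such transcripts count toward the gene in sequencing of mRNA but yield few footprints on the coding sequence.

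In the GENCODE annotation of mm10, 9 of the 10 genes had at least 1 NMD transcript and 8 had at least 1 retained-intron transcript. *Srsf11* had the most, with 3 NMD and 11 retained-intron transcripts out of 19. *Srsf9* had 1 NMD transcript and 0 retained-intron transcripts, and *Srsf10* had 0 of either kind, so for *Srsf10* the annotation does not show the feature that the group was chosen for. Among all 8784 genes that could be ranked by translation, 31.8% had an NMD transcript and 64.2% a retained-intron transcript.

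A cassette exon found only in an NMD transcript, between splice sites that the main coding transcript also uses, was annotated in 4 of the genes. These 5 poison exons are shown as annotated examples of the element the group was chosen for; other NMD and retained-intron transcripts of these genes do not contain them. Each sequence runs on the coding strand from the first base of the exon to its first in-frame stop codon, which is in capitals.
*Srsf3*, chr17:29039454-29039487, plus strand: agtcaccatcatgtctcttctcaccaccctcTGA
*Srsf7*, chr17:80205054-80205081, minus strand: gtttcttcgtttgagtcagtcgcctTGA
*Srsf9*, chr5:115328347-115328428, plus strand: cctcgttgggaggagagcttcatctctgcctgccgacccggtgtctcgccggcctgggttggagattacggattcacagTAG
*Srsf11*, chr3:158024209-158024231, minus strand: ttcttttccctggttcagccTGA
*Srsf11*, chr3:158023310-158023359, minus strand: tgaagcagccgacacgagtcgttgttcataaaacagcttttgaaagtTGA

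The stop codon began at base 32 of the 456-base exon of *Srsf3*, at base 26 of the 460-base exon of *Srsf7* and at base 80 of the 358-base exon of *Srsf9*. In *Srsf11*, it began at base 21 of a 109-base exon and at base 48 of a 117-base exon. In all 5 exons, between 67 and 432 bases followed the stop codon within the exon. The exon of *Srsf9* lies in intron 1 and the other 4 exons lie in intron 3 of their genes. Deposited values are sums per gene, so reads on these exons cannot be separated from reads on the coding exons.

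**Figure D1:**
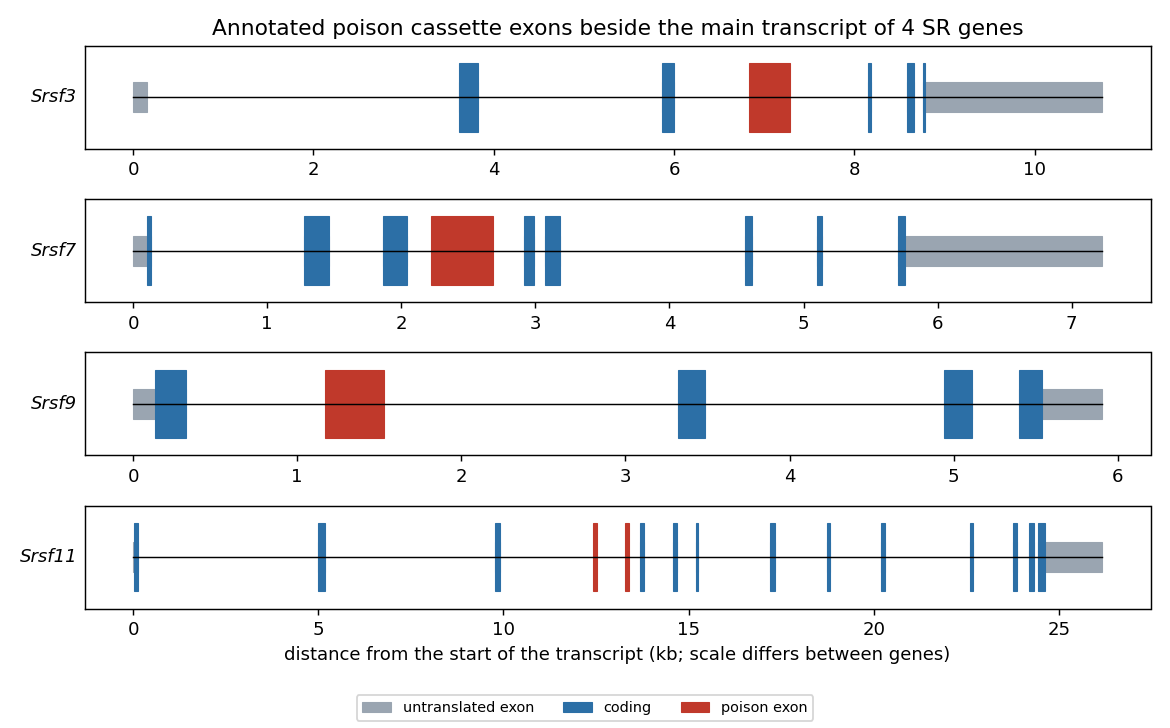
Exons of the main coding transcript of *Srsf3*, *Srsf7*, *Srsf9* and *Srsf11*, with coding exons in blue, untranslated exons in grey and the 5 annotated poison exons in red, plotted as distance in kb from the start of the transcript. The 456-base and 460-base exons of *Srsf3* and *Srsf7* are wider than the coding exons next to them, and the 2 exons of *Srsf11* share 1 intron.

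Depth differed between libraries. The mRNA library of WT clone 28 held 6617457 reads against 20576796 to 23136595 in the other 5, and RPF libraries ranged from 3477723 reads in R98S clone 35 to 10883086 in R98S clone 11. The fewest reads behind an SR value were 280 for mRNA (*Srsf4*) and 136 for RPF (*Srsf10* in R98S clone 35). Of the lymphoid label, *Ptprc*, *Cd79a* and *Cd79b* and the 3 IL-3 receptor genes were present, whereas *Pax5*, *Il7r* and *Rag1* had 0 reads in every mRNA library and *Ebf1*, *Vpreb1* and *Igll1* had a mean under 10 normalized counts. Of 9 myeloid and mast cell markers, only *Cd14*, *Cpa3*, *Ms4a2* and *Gata2* had a mean of 10 or more, and *Kit* had 0 reads in every mRNA library. The 9 markers summed to 12127 to 15766 normalized counts in R98S clones and 20399 to 26991 in WT clones. The 3 IL-3 receptor genes summed to 95080.5 to 117075 in R98S clones and 42064 to 80899 in WT clones. The 5 T cell markers, of which *Cd3d* and *Lck* had a mean of 10 or more, summed to 135 to 145 in R98S and 47.8 to 53.7 in WT clones. What part these differences have in the results below was not tested.

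SR genes were among the abundant mRNAs of these cells. Per kb of the main transcript, mRNA of 9 of the 10 genes stood at or above percentile 87.6 of all ranked genes in WT clones. *Srsf5* had 7194 ± 1023 (SD, n = 3) and *Srsf1* 7048 ± 1302 normalized counts per kb in WT clones, which overlap. *Srsf4* was the exception, at 296 ± 32.0 normalized counts per kb against 299 for the median gene. In footprints per kb of counted coding sequence, *Srsf2* was highest at 6399 ± 3073 normalized counts, and its spread reached the 3095 ± 224 of *Srsf5*. *Srsf10* stood at percentile 90.4 in mRNA and at percentile 59.5 in footprints, with 268 ± 20.7 normalized RPF counts per kb against 190.1 for the median gene.

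Translational efficiency (TE) was taken as the RPF/mRNA ratio of 1 clone. Divided by the 2 lengths, it was set relative to the median gene of the clone, on a log2 scale, so that a gene at 0 has as many footprints for its mRNA as the median gene. In WT clones, 6 of the 10 SR genes were below the median gene and the middle of the group was at percentile 38.3. *Srsf10*, which acts as a splicing repressor when dephosphorylated, was lowest, at -2.28, -1.60 and -1.98 in WT clones 28, 29 and 36, which is percentile 3.77. These 3 values lay below every WT value of the other 9 genes. *Srsf2*, the enhancer-binding factor also called SC35, was highest in the mean, at 1.5, 0.64 and 1.53, which is percentile 89.6. In WT clone 29, *Srsf7* (0.93) and *Srsf9* (0.73) were above it.

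Between these ends, the order was *Srsf1* (-1.0 ± 0.35, SD, n = 3), *Srsf11* (-0.98 ± 0.15), *Srsf5* (-0.64 ± 0.15), *Srsf4* (-0.41 ± 0.50), *Srsf3* (-0.20 ± 0.38), *Srsf9* (0.34 ± 0.67), *Srsf6* (0.36 ± 0.13) and *Srsf7* (0.72 ± 0.35). The WT values of each of these genes overlapped those of the next gene in the order, except those of *Srsf11* and *Srsf5*. *Srsf2*, *Srsf6*, *Srsf7* and *Srsf9* were above the median gene with these lengths. The position of several genes depended on the lengths used. With the union of all annotated exons for mRNA and of all annotated coding sequence for footprints, *Srsf1* moved from percentile 17.6 to 68.9, *Srsf3* from 42.4 to 75.6, *Srsf5* from 27.3 to 56.5 and *Srsf11* from 18.2 to 42.4. *Srsf10* was still lowest of the 10 at percentile 9.40 and *Srsf2* highest at 89.2, and with no length correction they were at 0.734 and 74.3. *Srsf9* was below the median gene with the union lengths, at percentile 47.2, and with no length correction *Srsf3* was at percentile 6.71, *Srsf6* at 33.6 and *Srsf7* at 49.3. *Srsf2* was above the median gene with all 3 choices of length, and 6, 4 and 8 of the 10 genes were below it with the main, union and no lengths. No test was made of these ranks.

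**Figure D2:**
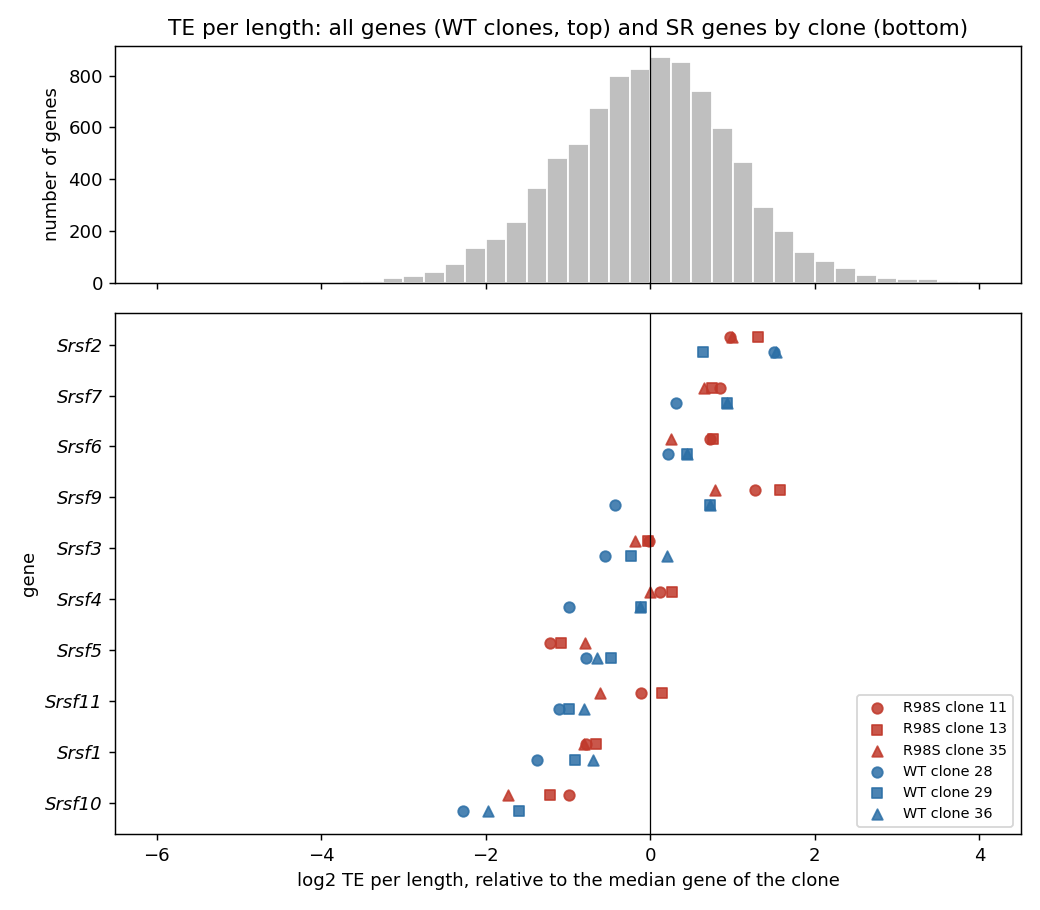
Upper panel: number of genes (y axis) by log2 TE per length relative to the median gene, over the WT clones, for the 8784 ranked genes, of which 22 lie beyond the axis. Lower panel: the same measure for each SR gene, with R98S clones in red and WT clones in blue. *Srsf10* lies lowest in every WT clone, and *Srsf2* is highest in the mean of the WT clones.

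The first comparison asked whether the mutant ribosome goes with other amounts of SR mRNA. It gave no call: 0 of 10 SR genes had an adjusted p under 0.1 (limma, Benjamini-Hochberg over 11344 genes), where 6.94% of all tested genes did. At an unadjusted p under 0.05 the count was also 0, against 17.9% of all genes, and edgeR and DESeq2 on the recovered reads gave 0 by both rules. With the median of each chromosome removed, 2 SR genes (*Srsf4* and *Srsf10*) had an unadjusted p under 0.05 by limma. Both were lower in R98S clones, and 0 passed the adjusted threshold. The log2 difference, R98S minus WT, ran from -0.38 for *Srsf11* to 0.16 for *Srsf5*, with a median of -0.12 against 0.01 for all tested genes. In such bulk libraries a lower share of cells with an mRNA and less of it per cell cannot be told apart. For all 10 genes the values of the genotypes overlapped, whereas 11.9% of tested genes lay wholly higher and 11.6% wholly lower in R98S clones.

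WT clone 28, the shallow library, had the highest mRNA value of the WT clones for 10 of 10 SR genes, which held for 38.3% of all tested genes. *Srsf3*, the smallest SR protein, had 7472, 6073 and 8271 normalized mRNA counts in R98S clones 11, 13 and 35 and 12576, 7331 and 8180.4 in WT clones 28, 29 and 36. *Srsf9* had 1296, 1079 and 1393 in R98S clones and 2001, 1098 and 1298 in WT clones. In both genes the WT values other than clone 28 lay within the R98S range. Leaving out WT clone 28, 6 of 10 SR genes had a mean above that of WT clones in place of 2, and the median difference was 0.05.

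In footprints, 1 of the 10 genes passed the test. *Srsf9* (chromosome 5, 115327177 to 115333080, plus strand), also called SRp30c, is a close relative of *Srsf1*. It had 1098, 1132 and 848 normalized RPF counts in R98S clones 11, 13 and 35 and 544, 625 and 730.03 in WT clones 28, 29 and 36. Every R98S value was above every WT value. Its RPF level rose by 0.70 on the log2 scale (SE 0.19, 95% confidence interval 0.27 to 1.12, adjusted p = 0.0728, limma). This is 1 call among 10 genes, where 7.76% of the 9580 tested genes passed in either direction and 3.13% passed as higher in R98S. An exact permutation test of the 6 RPF values of *Srsf9* alone gave p = 0.1, two-sided, the smallest that 3 against 3 allows. Any gene whose groups do not overlap gives this p, so it adds nothing to the lack of overlap. The call of *Srsf9* was lost when any 1 of 5 clones was left out (R98S clones 11 and 13 and WT clones 28, 29 and 36, adjusted p from 0.103 to 0.267), while the change stayed between 0.59 and 0.80.

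The mRNA of *Srsf9* differed by -0.18 (SE 0.24, adjusted p = 0.744, limma). The RPF/mRNA ratio of *Srsf9* was 0.847, 1.05 and 0.609 in R98S clones and 0.272, 0.569 and 0.563 in WT clones. All 3 R98S ratios were higher, although that of R98S clone 35 was close to those of WT clones 29 and 36. The TE difference was 0.88 (SE 0.32, 95% confidence interval 0.17 to 1.59) and did not pass (adjusted p = 0.629, limma). Without WT clone 28, whose mRNA value was the highest, it was 0.53 (adjusted p = 0.481, limma). *Srsf1*, the paralog of *Srsf9* and an oncogenic splicing factor, had 1829, 1972 and 1807 normalized RPF counts in R98S clones and 1512, 1353 and 2131 in WT clones, which overlap. Its RPF difference was 0.19 (SE 0.20) and its TE difference 0.26 (SE 0.21).

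*Srsf11* (chromosome 3, 158010473 to 158036639, minus strand), also called p54, contacts U2AF and is the member with the most annotated NMD and retained-intron transcripts. It had 2007, 1859.8 and 1604 normalized RPF counts in R98S clones and 1549.5, 1266 and 1298 in WT clones. All R98S values were higher, with those of R98S clone 35 and WT clone 28 close to each other. The RPF difference of *Srsf11* was 0.41 (SE 0.17, unadjusted p = 0.0384 and adjusted p = 0.217, limma). Its mRNA went the other way in the mean, with 6798, 5282 and 7589 normalized counts in the R98S libraries against 10059, 8061 and 7348 in those of WT, a difference of -0.38 (SE 0.20, adjusted p = 0.364, limma). The RPF/mRNA ratio was 0.295, 0.352 and 0.211 in R98S clones and 0.154, 0.157 and 0.177 in WT clones, with no overlap. The TE difference of *Srsf11* was 0.79 (SE 0.23, 95% confidence interval 0.28 to 1.29, unadjusted p = 0.00606, adjusted p = 0.629, limma).

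*Srsf11* lies on chromosome 3, where the median mRNA level over 490 genes was shifted by -0.30 in R98S clone 13 and -0.19 in R98S clone 35, and by 0.09 to 0.16 in the other 4 clones. With the median of each chromosome removed, the mRNA difference of *Srsf11* was -0.11 and its RPF difference 0.70 (adjusted p = 0.0542, limma), which made 2 of 10 SR genes called in RPF where 7% of all tested genes were. The TE difference changed little, to 0.81.

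*Srsf10* (chromosome 4, 135855747 to 135869908, plus strand) had 286, 249.8 and 228 normalized RPF counts in R98S clones and 195, 209 and 179 in WT clones. The groups did not overlap, and the RPF difference was 0.38 (SE 0.19, adjusted p = 0.297, limma). Its mRNA was at 3562, 3622 and 4682 in R98S clones and 5674, 4051 and 4546 in WT clones, which overlap. The RPF/mRNA ratio was 0.0803, 0.0690 and 0.0488 in R98S clones and 0.0343, 0.0517 and 0.0394 in WT clones, so that R98S clone 35 lay below WT clone 29. The TE difference was 0.65 (SE 0.30, adjusted p = 0.635, limma). On chromosome 4 the median mRNA level over 674 genes was shifted by 0.04 to 0.13 in R98S clones and by -0.14 to -0.04 in WT clones. With the median of each chromosome removed, the RPF difference of *Srsf10* was 0.20 (adjusted p = 0.598, limma) and its TE difference 0.64. Its mRNA difference was then -0.44 (adjusted p = 0.265, limma), against -0.26 without this step.

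In all, 3 SR genes (*Srsf9*, *Srsf10* and *Srsf11*) had RPF values wholly higher in R98S clones, against 12.5% of tested genes, and 0 had them wholly lower, against 12.8%. At an unadjusted p under 0.05, 2 were higher in RPF (*Srsf9* and *Srsf11*), against 9.62% of tested genes.

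**Figure D3:**
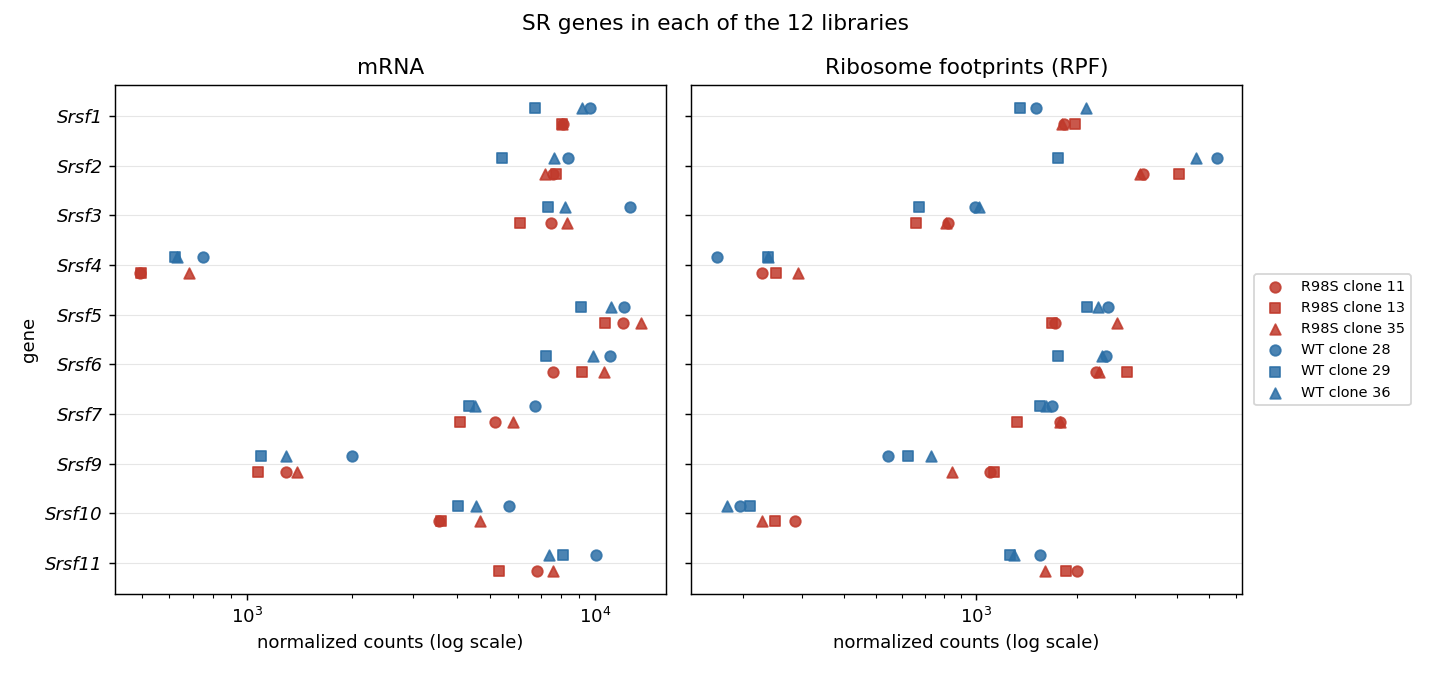
Normalized counts of the 10 SR genes (log x axis) in mRNA (left) and RPF (right), with 1 point per clone, R98S in red and WT in blue. In mRNA the genotypes overlap for all 10 genes and WT clone 28 is the highest WT clone throughout; in RPF all R98S points of *Srsf9*, *Srsf10* and *Srsf11* lie to the right of the WT points.

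*Srsf4*, *Srsf5* and *Srsf6* form a subfamily with a second, degenerate RNA recognition motif and long arginine-serine tails. *Srsf4* had an RPF/mRNA ratio of 0.458, 0.506 and 0.426 in R98S clones and 0.221, 0.382 and 0.375 in WT clones. The groups did not overlap, with WT clone 28 far below the other 2 WT clones. The TE difference of *Srsf4* was 0.54 (SE 0.24, unadjusted p = 0.0463, adjusted p = 0.629, limma), and it was 0.29 without WT clone 28. *Srsf4* also lies on chromosome 4, and its RPF difference of 0.28 was 0.09 with the median of each chromosome removed. The same step took its mRNA difference from -0.27 to -0.44 (adjusted p = 0.282, limma). *Srsf5* was the one member with TE wholly lower in R98S clones, at 0.144, 0.159 and 0.196 against 0.205, 0.236 and 0.2096 in WT clones. Its difference of -0.39 (SE 0.20, adjusted p = 0.644, limma) did not pass. *Srsf5* had 1725, 1693 and 2641 normalized RPF counts in R98S clones and 2488, 2151 and 2326 in WT clones, so that R98S clone 35 stood above all others. *Srsf6* had 2279, 2838 and 2329 normalized RPF counts in R98S clones and 2443, 1755 and 2381 in WT clones, with a TE difference of 0.22 (SE 0.20).

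*Srsf2* (chromosome 11, 116849901 to 116853094, minus strand) had the largest standard error of the 10 genes in RPF. It had 3156, 4069.9 and 3093 normalized RPF counts in R98S clones and 5267, 1759 and 4549 in WT clones, so that WT clone 29 was well below and the other 2 WT clones above all R98S clones. The RPF difference was -0.03 (SE 0.35) and the TE difference -0.12 (SE 0.27). With a 95% confidence interval of -0.80 to 0.74 for RPF, a change of moderate size in either direction was not detectable in these clones. The gene overlaps *Mfsd11* and *Mettl23* on the other strand, and the strand setting of the counting is not given in the sources used here. *Srsf3* and *Srsf7*, which have a single RNA recognition motif and act as adaptors for mRNA export, showed no difference beyond the spread of the clones. Their TE differences were 0.13 (SE 0.24) for *Srsf3* and 0.03 (SE 0.20) for *Srsf7*, with 95% confidence intervals of -0.40 to 0.66 and -0.42 to 0.48.

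Over the group, TE gave 0 calls of 10 at an adjusted p under 0.1 (limma), where 2 of 9043 genes, or 0.0221%, passed. By edgeR and DESeq2 on the recovered reads the count was also 0, where 3 and 54 of the 9043 genes passed. By limma at an unadjusted p under 0.05, 3 SR genes had higher TE (*Srsf4*, *Srsf9* and *Srsf11*), against 4.16% of tested genes. Which genes met this rule depended on the setting. With edgeR they were *Srsf9*, *Srsf10* and *Srsf11*, and DESeq2 added *Srsf4* as higher and *Srsf5* as lower. With no filter or with chromosome medians removed, *Srsf4* was not among them. Without R98S clone 11, and likewise without R98S clone 13, only *Srsf11* remained. The TE of 3 SR genes was wholly higher in R98S clones, against 7.46% of tested genes, and that of 1 wholly lower, against 7.33%. The median TE difference of the 10 genes was 0.24 against 0.00 for all tested genes, with 8 genes above 0, and it was 0.14 without WT clone 28. WT clone 28 had the lowest TE of the WT clones for 9 of 10 SR genes, which held for 40.9% of all tested genes, and R98S clone 35, with the shallowest RPF library, the lowest TE of the R98S clones for 8 of 10, against 38.8%.

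**Figure D4:**
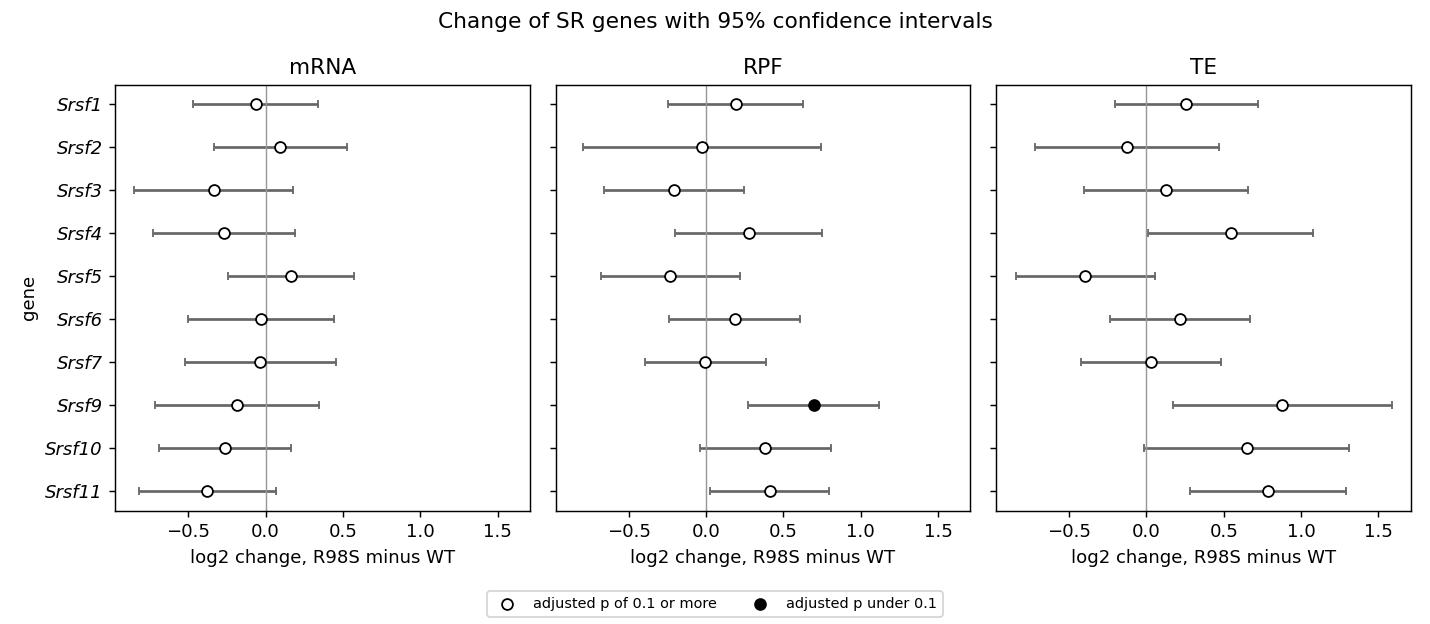
Log2 difference of R98S minus WT (x axis) of each SR gene in mRNA, RPF and TE, with 95% confidence intervals from limma and filled points for an adjusted p under 0.1. The filled point is the RPF change of *Srsf9* at 0.70; intervals of *Srsf4*, *Srsf9* and *Srsf11* lie above 0 in TE without passing the adjusted threshold.

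The CLK kinases phosphorylate SR proteins, and their own transcripts are known for introns that stay in the nucleus. With the main transcript lengths, *Clk1* and *Clk4* were among the genes with the lowest TE, at percentiles 0.142 and 0.609 in WT clones. *Clk2* was at 4.32, whereas *Clk3* was at 55.6. Ranks of single CLK genes with the other lengths are not given here, and those of several SR genes depended on the lengths. *Clk1* mRNA stood at 5183, 4525 and 4152 normalized counts for the R98S clones against 3604, 2609 and 2436 for the WT clones, with no overlap, and it rose by 0.70 (SE 0.19, adjusted p = 0.087, limma). The call of *Clk1* mRNA was lost with no filter, with edgeR, with chromosome medians removed, and when any 1 of 5 clones other than WT clone 28 was left out. For *Clk1* footprints, R98S clones 11, 13 and 35 stood at 693, 644 and 136 normalized counts, against 133, 119.7 and 130.5 for WT clones 28, 29 and 36. R98S clones 11 and 13 were thus far above the WT clones, and R98S clone 35 was only just above the highest of them.

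The RPF difference of *Clk1* was 1.62 (SE 0.50, adjusted p = 0.101, limma), and it was called when R98S clone 35 was left out (2.38, adjusted p = 0.000191, limma) and when no other clone was. Without R98S clone 11 or 13 it was 1.21 (adjusted p = 0.306, limma) or 1.26 (adjusted p = 0.347, limma), and without a WT clone it was 1.57 to 1.65. On the recovered reads, edgeR gave 1.96 (adjusted p = 0.0400) and DESeq2 1.95 (adjusted p = 0.0437). *Clk4* footprints were at 190.4, 248 and 92.4 normalized counts for R98S against 66.9, 77.0 and 107 for WT. There too R98S clones 11 and 13 were highest, but R98S clone 35 lay below WT clone 36. The RPF difference of *Clk4* was 0.99 (SE 0.35, adjusted p = 0.144, limma), and it was 1.40 without R98S clone 35 (adjusted p = 0.0207, limma) and 0.69 to 1.18 without any other clone, with no call. On the recovered reads of *Clk4*, edgeR gave 1.11 (adjusted p = 0.0957) and DESeq2 1.10 (adjusted p = 0.0284). *Clk2* also had its lowest R98S footprint value in clone 35 (126 against 361 and 277), with a difference of 0.64 (SE 0.37, adjusted p = 0.374, limma). For *Clk2* it was 1.08 without that clone (adjusted p = 0.0636, limma), 0.32 without R98S clone 11 (adjusted p = 0.746, limma) and 0.35 without WT clone 29 (adjusted p = 0.654, limma). *Clk3* had an RPF difference of 0.33 (SE 0.19, adjusted p = 0.374, limma).

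The SR-like factors *Tra2a* and *Tra2b* bind purine-rich exonic enhancers, and both are known for poison exons. *Tra2a* had 313, 344 and 403 normalized RPF counts in R98S clones and 570.3, 416 and 602 in WT clones, lower in all 3 R98S clones, with a difference of -0.57 (SE 0.20, adjusted p = 0.144, limma). *Tra2b* had an RPF difference of -0.02 (SE 0.18) and a TE difference of 0.20 (SE 0.24). Both were below the median gene in TE in WT clones with the main transcript lengths, at percentiles 25.4 and 30.3.

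**Figure D5:**
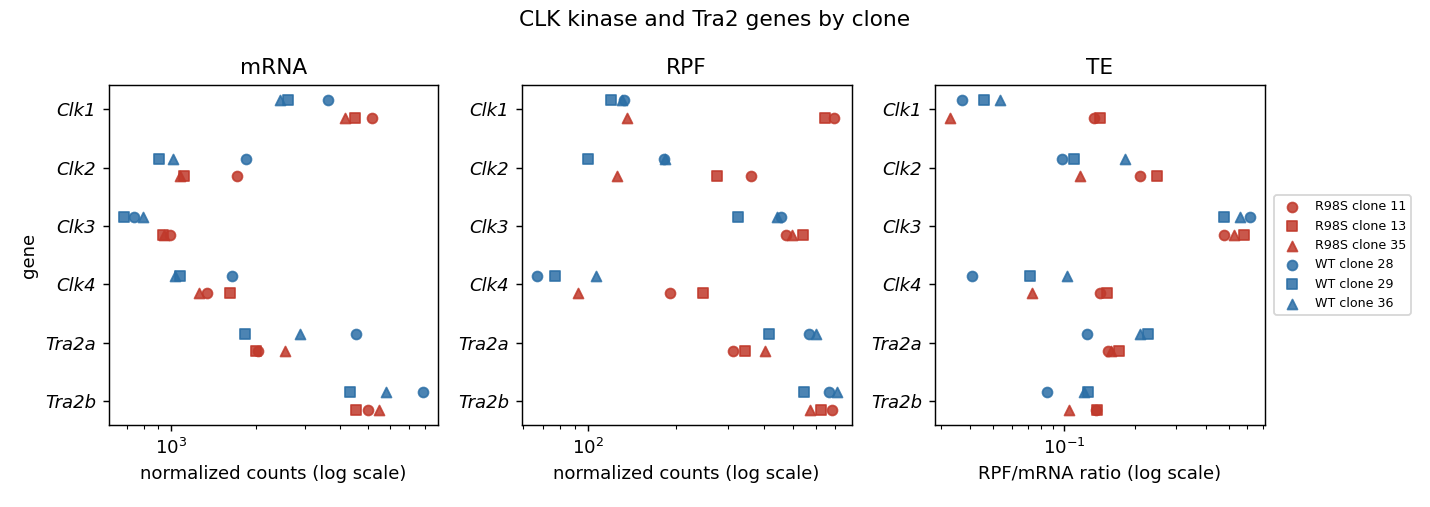
Normalized counts of mRNA and RPF and their ratio (TE), on log x axes, for the CLK kinase genes and *Tra2a* and *Tra2b*, with 1 point per clone, R98S in red and WT in blue. For RPF of *Clk1*, R98S clones 11 and 13 are at 693 and 644 and R98S clone 35 is at 136, just above the WT clones.

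The counts for other lists of splicing genes are to be read beside the 6.94% of all tested genes called in mRNA, 7.76% in RPF and 0.0221% in TE, and 0 genes of these lists were called in TE by limma. Of the 33 SR-related proteins, 31 were tested, and 1 was lower in mRNA and 1 lower in RPF. *Zranb2*, a zinc finger splicing factor, averaged 3934 ± 125 (SD, n = 3) normalized mRNA counts over R98S clones against 6106 ± 609 over WT clones, a change of -0.63 (adjusted p = 0.0582, limma). *Sugp1*, which works with the branch point factor SF3B1, averaged 342 ± 10.4 normalized RPF counts over R98S clones against 574 ± 109 over WT clones, a change of -0.73 (adjusted p = 0.06, limma). In WT clones, 26 of 31 of these genes were below the median gene in TE, and 20 with either of the other choices of length, which was not tested. Of the 13 kinases and transport factors, *Clk1* was higher in mRNA and *Srpk2*, an SR protein kinase, was lower in RPF, with a log2 change of -0.85 (adjusted p = 0.0855, limma).

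Of 33 hnRNP and related proteins, which often oppose SR proteins, *Ptbp3* was higher in mRNA by 0.73 (adjusted p = 0.0998, limma) and in RPF by 0.69 (adjusted p = 0.0592, limma), and *Hnrnpa1* changed by -0.70 in RPF (adjusted p = 0.0735, limma). The mRNA call of *Ptbp3* was lost with a pseudocount of 0.5, with no filter (adjusted p = 0.144, limma) and with edgeR (adjusted p = 0.103), and that of *Hnrnpa1* with quantile normalization (adjusted p = 0.105, limma). Of 43 core spliceosome genes, 0 were called in mRNA by limma, with 6 at an unadjusted p under 0.05 where 17.9% of all genes were, and 3 in RPF, a share near that of all genes. The helicase gene *Dhx16* was higher by 0.66 (adjusted p = 0.0592, limma), and *Cdc5l* and *Prpf3* changed by -0.86 (adjusted p = 0.0653, limma) and -0.71 (adjusted p = 0.0911, limma). Of the core spliceosome genes, 14 of 43 were below the median gene in TE. They ranked higher than the SR genes, at a median percentile of 69.3 against 38.3. The other lists lay closer to the SR genes. SR-related proteins were at 30.3 and kinases and transport factors at 39.4. The hnRNP and related proteins were at 40.6 and nonsense-mediated decay genes at 41.0. With union lengths these lists ran from 23.4 to 63.9, with SR genes at 53.7 and the core spliceosome at 75.3. These differences were not tested.

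In the nonsense-mediated decay pathway, which removes poison exon transcripts, 2 of 19 genes were called, 1 of them higher and 1 lower in mRNA and the latter also in RPF. *Upf3b*, which links the exon junction complex to UPF proteins, averaged 1814 ± 71.9 (SD, n = 3) normalized mRNA counts over R98S clones against 1101 ± 46.6 over WT clones, a change of 0.72 (adjusted p = 0.0343, limma). *Magohb*, a near-identical copy of the exon junction gene *Magoh* for which reads may be split, averaged 164 ± 28.5 normalized mRNA counts over R98S clones against 619 ± 363 over WT clones, and changed by -1.78 in mRNA (adjusted p = 0.0274, limma) and by -2.02 in RPF (adjusted p = 0.00766, limma). Of the 13 calls in these lists, 12 were lost when some clone was left out, the exception being *Magohb* in RPF. With chromosome medians removed 6 were lost, namely *Zranb2*, *Sugp1*, *Clk1*, *Prpf3* and both calls of *Ptbp3*.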

How the data were processed

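Ribosome footprints and poly(A) mRNA were sequenced from the same 6 clones. Per the labels and methods, the authors aligned reads to mm10 (GRCm38) with TopHat2 2.0.11 and Bowtie2, merged 3 technical replicates per clone for footprinting, kept footprints of at least 20 bases with a mapping quality of at least 10, left out the first 15 and last 5 codons, and divided counts by DESeq2 size factors, separately for each table. The deposited values are therefore a signal of normalized counts; all values (100%, tolerance 0.01) were whole multiples of 1 read, so whole reads could be recovered. The gene annotation used for counting is not given in the sources used here.

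Groups came from the labels. Differences in log2(value + 1) were tested with limma 3.58.1 (R 4.3.3), with moderated variance following the mean and Benjamini-Hochberg adjustment over all genes, at an adjusted p under 0.1. Fold changes on this scale understate those of low genes. Filters were a mean of at least 10 normalized counts for mRNA and RPF, and at least 10 in each of the 12 libraries for TE. TE was tested as log2(RPF + 1) minus log2(mRNA + 1) per clone, which blocks on clone. Both libraries come from the same clone, and their deviations from the genotype mean correlated at 0.519 on average over the 6 clones (lowest 0.218, WT clone 28). Clones were grown from single cells, and p-values measure the spread between clones. Tested on simulated data, the fits recovered, of 200 genes given a log2 change of 1.5, 94% for mRNA, 97% for RPF and 66% for TE. There were 13, 21 and 17 false calls. This change of 1.5 is larger than any measured for an SR gene. The simulated mRNA and RPF reads were drawn independently, with no effect shared by the libraries of 1 clone. The 66% for TE thus holds for unpaired libraries.

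TE ranks used coding length less the omitted codons and transcript length of the protein-coding transcript with the longest coding sequence (GENCODE), over 8784 genes. Alternatives were another pseudocount, no filter, edgeR 4.0.16 and DESeq2 1.42.0 on recovered reads, quantile normalization, removal of chromosome medians, no replicate block, other lengths and each clone left out. Named genes were the 10 SR genes, the CLK and Tra2 genes, and from each list the genes past the threshold whose groups did not overlap, with at most 3 rises and 3 falls per measure. The members and lists were chosen with earlier results of these data known.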

Additional observations from a re-analysis of the deposited data

How the results depend on the processing

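The number of SR genes called in mRNA was 0 and in TE 0 under every alternative run. In RPF it was 1 in 5 of the other alternatives, 2 with chromosome medians removed (*Srsf9* and *Srsf11*), and 0 to 1 with a clone left out. Without the replicate block on clone, 0 SR genes were called in TE, as with it. The median TE percentile of the SR genes in WT clones, 38.3, was 53.7 with union exon lengths, 31.4 with no length correction, 51.4 in R98S clones and 33.0 to 47.3 with a WT clone left out; union lengths change both the coding and the mRNA length. Small differences changed sign. With quantile normalization, mRNA of *Srsf6* and *Srsf7* was at 0.020 and 0.024, RPF of *Srsf2* at 0.11, of *Srsf7* at 0.093 and of *Tra2b* at 0.015. With chromosome medians removed, mRNA of *Srsf2* was at -0.0052 and RPF of *Tra2b* at 0.063. RPF of *Srsf7* was at 0.012 with edgeR and 0.0086 with DESeq2. With a clone left out, the ranges of the log2 difference that crossed 0 were -0.23 to 0.036 (*Srsf1* mRNA), -0.092 to 0.22 (*Srsf2* mRNA), -0.52 to 0.27 (*Srsf2* RPF), -0.43 to 0.047 (*Srsf2* TE), -0.019 to 0.31 (*Srsf3* TE), -0.21 to 0.097 (*Srsf6* mRNA), -0.15 to 0.17 (*Srsf7* mRNA), -0.075 to 0.14 (*Srsf7* RPF), -0.14 to 0.12 (*Srsf7* TE), -0.37 to 0.065 (*Srsf9* mRNA), -0.13 to 0.41 (*Clk2* mRNA), -0.15 to 0.027 (*Clk3* TE) and -0.13 to 0.051 (*Tra2b* RPF). The cause was not tested. With 3 clones per genotype, TE differences of the size seen for *Srsf9* and *Srsf11* did not pass the threshold.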

Other observations

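The summed footprints of the 10 SR genes were 0.253, 0.286 and 0.228 per summed mRNA count in R98S clones 11, 13 and 35, and 0.213, 0.215 and 0.256 in WT clones 28, 29 and 36. These ratios overlap between genotypes. The 10 genes together took 0.323% to 0.383% of all normalized mRNA counts in R98S clones and 0.303% to 0.444% in WT clones.

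Across all 8784 ranked genes, the median log2 TE per length in WT clones was -0.21 for the 2284 genes with both an NMD and a retained-intron transcript in the annotation and 0.17 for the 2632 genes with neither. With union exon lengths the order was the other way round, at 0.02 and -0.14, and with no length correction the medians were -0.06 and -0.01. Of the SR genes, 8 belong to the first class and 1, *Srsf10*, to the second.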
